A study of Homo sapiens with 6 samples.

Results

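The annexins described here are the 8 genes ANXA1, ANXA2, ANXA3, ANXA4, ANXA5, ANXA6, ANXA7 and ANXA11, taken by name from the deposited counts of 57316 gene names. The cells were THP-1, an established line from a human monocytic leukaemia, which had first been kept for 48 h with the phorbol ester PMA at 100 ng/ml, an agent that pushes these cells towards a macrophage state. The control group then received a control solution for 24 h and the other group recombinant human CXCL10 at 100 ng/ml for 24 h, so all cells of both groups carried the PMA exposure. Each group holds 3 RNA-seq libraries of polyadenylated RNA, numbered 1, 3 and 4 in the labels. The labels do not say whether the libraries came from separate cultures, so a p-value here measures the spread between these libraries, which may be technical. All libraries come from this single established line, and no primary macrophages were analysed here.

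Annexins are proteins that bind acidic phospholipids, above all phosphatidylserine, when calcium rises. They share a core of repeated calcium-binding domains and differ in their N-terminal tails, which bind partner proteins such as the small S100 proteins. In macrophages they are known for membrane trafficking and repair, for plasminogen activation at the cell surface, and, in the case of annexin A1, for damping inflammation through formyl peptide receptors.

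Library totals ran from 34782380 to 41023583 reads. Of 10 marker genes of monocytes and macrophages, 9 passed the filter on low counts. Among them were CSF1R at 1496 ± 47.3 CPM in controls (mean ± SD, n = 3) and SPI1 at 373.7 ± 15.5 CPM. The lowest of the 9 was LYZ, at 8.96 ± 2.45 CPM in controls. All libraries carried the PMA exposure, so these markers do not tell a macrophage state from a monocyte state. CPM is the number of reads per 1 M reads of a library, scaled between libraries by edgeR's TMM factors. CD68 had 0 to 5 reads per library, and 81.6% of its exon length overlaps another gene on the same strand, whose shared reads the counting left out. Of 11 markers of other cell types, MS4A1 and EPCAM had 0 reads in all 6 libraries, and of the 4 that passed the filter only PECAM1, which monocytes also express, was above 2 CPM in either group. Control replicate 4 stood apart from the other 5 libraries. Reads were found for 21546 genes there against 23631 to 24807 elsewhere, and ribosomal protein genes took 12.8% of its reads against 7.67% to 9.85%.

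No annexin changed past the threshold between CXCL10 and control. For 7 of the 8 genes the 95% intervals were narrow, but they rest on the spread between these libraries, which may be technical. In edgeR's quasi-likelihood test over all 16531 genes that passed the filter, 0 of the 8 annexins were called at an adjusted p of 0.05, where the test called 0% of all genes (DESeq2 also called 0 genes). Adjusted p-values ran from 0.786 for ANXA2 to 0.999 for ANXA5. At an unadjusted p under 0.05 the count was also 0 of 8, beside 7.14% of all genes tested (1181 genes). That background moved with single libraries, to 626 genes without CXCL10 replicate 3, 649 without control replicate 4, 649 without CXCL10 replicate 4 and 2103 without CXCL10 replicate 1, and to 3022 in limma-voom with quality weights. The groups overlapped for all 8 annexins. Of all genes tested, 12.2% had every CXCL10 library on the same side of every control library. With 8 genes, a count of 0 cannot be told apart from that share. The median log2 fold change of the 8 genes was 0.0060, beside 0.02 over all genes tested. For ANXA1, ANXA2, ANXA4, ANXA5, ANXA6, ANXA7 and ANXA11 the 95% interval stayed inside -0.5 to 0.5 on the log2 scale, which held for 5797 of all 16531 genes.

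**Figure D1:**
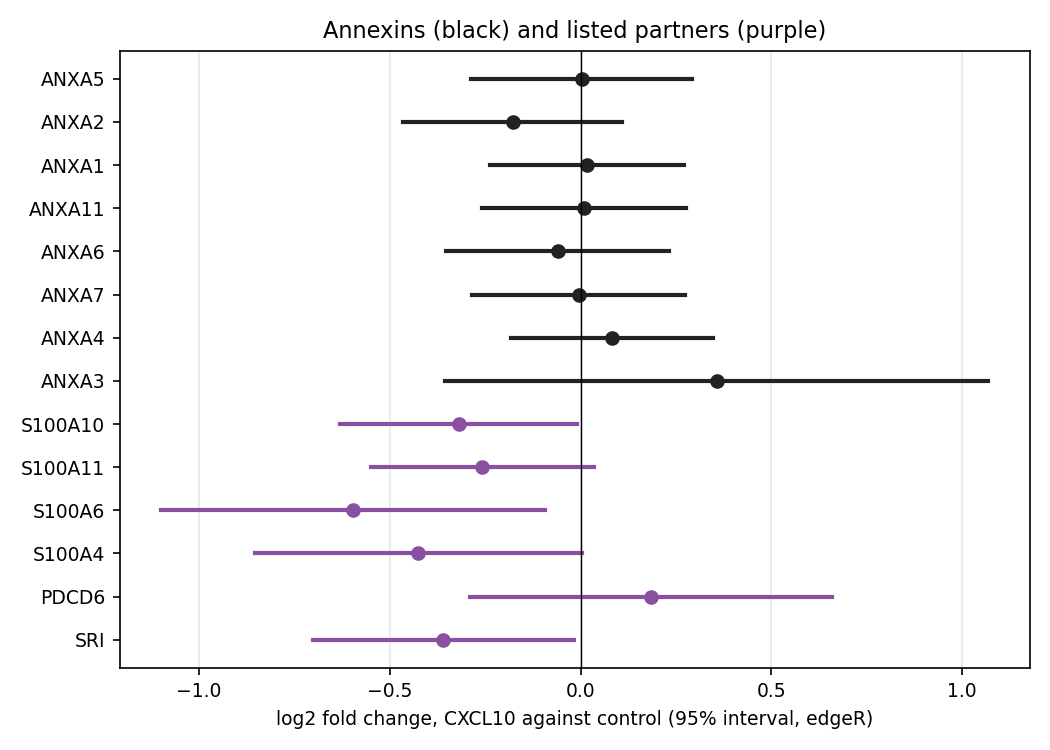
The horizontal axis gives the log2 fold change of CXCL10 against control from edgeR with its 95% interval (bars), for the 8 annexins in black and 6 listed partner proteins' genes in purple. The intervals of all 8 annexins include 0, that of ANXA3 is the widest of the annexins, and those of S100A10, S100A6 and SRI lie below 0, none past the adjusted threshold.

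The annexins took 0.257% to 0.295% of all reads in a library. ANXA2 and ANXA5 alone gave 67.7% to 72.2% of the scaled annexin reads. The 8 genes summed to 2786 ± 73.9 CPM in the control group and 2665 ± 197 CPM in the CXCL10 group (mean ± SD, n = 3 each). The lowest sum was that of CXCL10 replicate 3 with 2486 CPM and the highest that of CXCL10 replicate 4 with 2876 CPM. On this TMM scale the control libraries thus lay inside the range of the CXCL10 libraries. By unscaled share of reads the lowest library was control replicate 4, with 0.257%, below CXCL10 replicate 3 with 0.261%. In bulk RNA, fewer cells that express a gene and less RNA per cell cannot be told apart.

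Levels were compared between genes per kilobase of the exon length that the count files give for each gene. On this scale, CPM per kb, ANXA5 was the highest with 299.6 ± 28.4 (mean ± SD over 6 libraries), followed by ANXA2 with 118 ± 13.4. ANXA1 had 49.3 ± 1.63 and ANXA11 41.8 ± 2.71 CPM per kb. Lower levels were found for ANXA6 with 17.6 ± 1.73, ANXA7 with 15.7 ± 0.750 and ANXA4 with 7.87 ± 0.432 CPM per kb. ANXA3 was far below the rest with 0.266 ± 0.0662 CPM per kb. Of the 7 neighbouring pairs in this order, 6 kept it in all 6 libraries. ANXA6 was above ANXA7 in 5 of 6 libraries with overlapping ranges, so on this scale these neighbours did not differ beyond their spread. Among all genes tested, ANXA5 exceeded 99.1% and ANXA2 97.8% on this scale, while ANXA3 exceeded 14.5%.

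The order of the pairs ANXA5 and ANXA2, and ANXA7 and ANXA4, turned when principal transcripts gave the length instead of all exons. The exon length in the files joins the exons of all annotated transcripts, which gives ANXA2 8824 bases and ANXA5 2925 bases. The principal transcripts in the GENCODE 29 annotation have 1676 and 1762 bases. With those lengths, an alternative chosen after the data were seen, ANXA2 had 623 CPM per kb and ANXA5 497 CPM per kb, and ANXA2 was the higher in all 6 libraries. ANXA4, whose exon union is 11060 bases and whose principal transcript is 2799 bases, then lay above ANXA7 in all 6 libraries, with 31.1 against 20.7 CPM per kb. ANXA6 and ANXA7, which overlapped by exon length, then separated, with ANXA6 1.56 to 1.98 times as high in all 6 libraries. Which transcripts the cells used was not tested, since the files hold 1 count per gene. Where several transcripts shared the best principal rank, the longest was taken. The principal transcript of ANXA11 has 6965 bases, of which 1515 are coding, against 2209 and 1038 for ANXA1. Levels by coding length were not computed, so other pairs may also turn with the length. For ANXA2 the counts themselves may also be too low. Of the 50-base windows of its principal transcript, 35.3% also occur in transcripts of the pseudogenes ANXA2P1, ANXA2P2 or ANXA2P3, as do 18.2% of the 100-base windows, and the counting dropped reads with several mapping places. For the other 7 annexins the share of 50-base windows found in another gene was at most 2.87%.

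**Figure D2:**
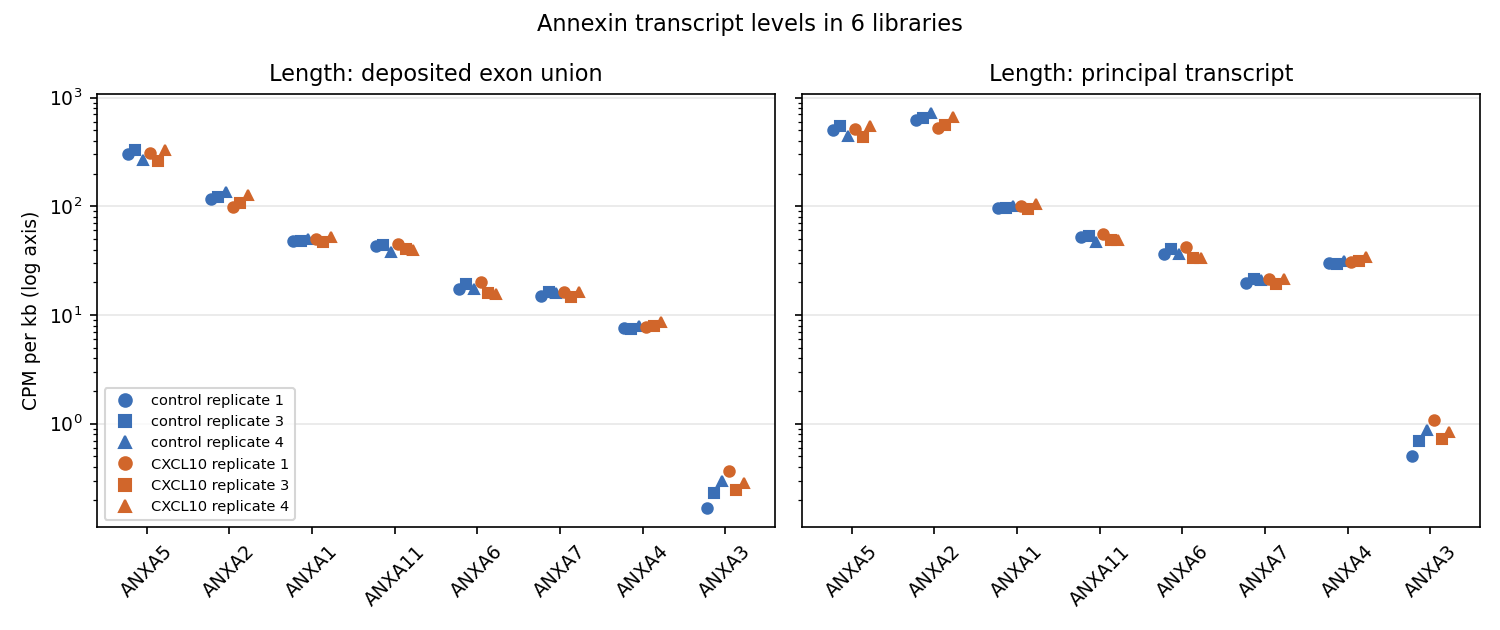
The vertical log axes give CPM per kb for each annexin in the 6 libraries (control blue, CXCL10 orange, symbols for replicates), with the deposited exon union on the left and the GENCODE 29 principal transcript on the right as the length. ANXA5 is above ANXA2 on the left and below it on the right, and ANXA3 is the lowest in both.

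Annexin promoters differ in base composition and in short elements that are known for positioning transcription. The stretches of the 3 annexins with the highest levels per kb, ANXA5, ANXA2 and ANXA1, and of the lowest, ANXA3, are shown because they mark the ends of the range of levels. The sequences are from RefSeq (GRCh38.p14), which matched all 8 annexins, and each runs 5′ to 3′ on the gene's strand from 150 bases before the RefSeq start site. Bases that an annotated exon of the gene covers in the count files are left out. Capitals mark matches on either strand to 4 patterns. They are the TATA box, searched as TATAAA, the CCAAT box, the GC box, searched as GGGCGG, and the pattern known for binding AP-1 (factors that phorbol esters activate), searched as TGANTCA. Matches of the GC box may overlap each other. The stretches are chr4:121696996-121697130 (minus strand) for ANXA5, chr15:60398044-60398136 (minus) for ANXA2, chr9:73151715-73151864 (plus) for ANXA1 and chr4:78551620-78551746 (plus) for ANXA3.
ANXA5: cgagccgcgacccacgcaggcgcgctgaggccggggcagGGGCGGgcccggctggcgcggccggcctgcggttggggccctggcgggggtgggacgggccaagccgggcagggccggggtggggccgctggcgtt
ANXA2: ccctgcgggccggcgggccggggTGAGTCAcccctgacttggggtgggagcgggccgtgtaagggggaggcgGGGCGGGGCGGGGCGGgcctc
ANXA1: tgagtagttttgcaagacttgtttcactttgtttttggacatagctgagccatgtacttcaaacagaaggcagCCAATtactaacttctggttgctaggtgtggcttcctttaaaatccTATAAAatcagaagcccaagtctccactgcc
ANXA3: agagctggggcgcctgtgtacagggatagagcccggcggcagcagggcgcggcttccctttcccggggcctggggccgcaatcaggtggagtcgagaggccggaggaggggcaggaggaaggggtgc

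In windows of 300 bases, 250 before and 50 after each start site, the ANXA1 promoter had a GC content of 37.7% and 0 CpG dinucleotides, against 76.3% with 36 CpG for ANXA5 and 76.0% with 32 for ANXA2. The median GC content of all 27305 promoters was 58.3%. TATAAA was found for ANXA1, ANXA2 and ANXA11, 3 of 8 annexins, and in 11.95% of all promoters. In ANXA1 and ANXA2 it began at the same place, 31 bases before the start site, which for ANXA2 lies in the part not shown. GGGCGG was found for 5 of 8 annexins and in 44.6% of all promoters, CCAAT for 3 of 8 and in 35.7%, and TGANTCA for ANXA2 alone of the 8, at 127 bases before its start site, and in 7.76% of all promoters. ANXA3 had a GC content of 64.7% and none of these 4 letter patterns in the window. The RefSeq start site lies inside the gene span of the count files for ANXA2, ANXA3, ANXA5, ANXA6 and ANXA7, and before that span for ANXA4 and ANXA11. The files do not tell which start was used, so the matches describe these windows only.

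ANXA2 encodes annexin A2, which pairs with S100A10 at the plasma membrane and binds plasminogen and its activator there (chromosome 15, 60347134 to 60402883, hg38, minus strand). It had the lowest p-value of the family. Control replicates 1, 3 and 4 had 1040, 1081 and 1204 CPM, and CXCL10 replicates 1, 3 and 4 had 879, 943 and 1118 CPM. CXCL10 replicates 1 and 3 lay below every control library, while CXCL10 replicate 4 lay between controls 3 and 4. The means were 1108 ± 85.7 and 979.7 ± 124 CPM. The log2 fold change was -0.18 ± 0.13 (SE), with a 95% interval from 0.724-fold to 1.08-fold and an adjusted p of 0.786 by edgeR. It ranked 4331 by p-value among 16531 genes. Leaving out CXCL10 replicate 4 gave -0.28 and leaving out CXCL10 replicate 1 gave -0.11. Leaving out control replicate 4, the library with the highest ANXA2 level, gave -0.11. It was -0.27 with each library's gene length trend removed and -0.0057 in limma-voom with library quality weights, with no call in any of these.

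ANXA5 encodes annexin A5, the protein widely used as a probe for phosphatidylserine on dying cells (chromosome 4, 121667946 to 121696995, minus strand). Control replicates 1, 3 and 4 had 880 and 962 and 784 CPM, and CXCL10 replicates 1, 3 and 4 had 902 and 770 and 958 CPM. The 2 lowest libraries were control replicate 4 and CXCL10 replicate 3, and the 2 highest were control replicate 3 and CXCL10 replicate 4, 1 of each group at either end. The group means were 876 ± 89.0 and 877 ± 96.5 CPM. The log2 fold change was 0.0025 ± 0.13 (SE), with a 95% interval from 0.820-fold to 1.22-fold and an adjusted p of 0.999 by edgeR. ANXA5 and ANXA2 did not share their order over the libraries. Control replicate 4 had the highest ANXA2 and the second lowest ANXA5 level, so the reads of ANXA5 per read of ANXA2 were 0.651 there, against 0.817 to 1.03 in the other libraries.

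ANXA1 encodes annexin A1, or lipocortin, a glucocorticoid-induced protein known for damping inflammation (chromosome 9, 73151865 to 73170393, plus strand). Control replicates 1, 3 and 4 had 215.05, 215 and 225 CPM, and CXCL10 replicates 1, 3 and 4 had 221, 211 and 231 CPM. These values were close together in all libraries, with both the lowest and the highest in the CXCL10 group. Across the 6 libraries its levels spanned 0.13 on the log2 scale, and 0.708% of the 8754 genes with a mean of at least 10 CPM spanned less. The log2 fold change was 0.02 ± 0.12 (SE), with a 95% interval from 0.849-fold to 1.21-fold and an adjusted p of 0.984 by edgeR.

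ANXA11, ANXA7, ANXA6 and ANXA4 showed the same picture of small differences within the spread. ANXA11 encodes annexin A11, which has a long N-terminal region and is known for tethering RNA granules to lysosomes (chromosome 10, 80150889 to 80205572, minus strand). It measured 354 ± 25.4 CPM in the control group and 357 ± 26.1 CPM in the CXCL10 group, lowest in control replicate 4 with 326 CPM and highest in CXCL10 replicate 1 with 387 CPM. On the log2 scale the difference was 0.0096 ± 0.12 (SE; edgeR adjusted p = 0.992). ANXA7, the gene of annexin A7 or synexin, a promoter of membrane fusion in vitro (chromosome 10, 73375101 to 73414076, minus strand), measured 45.04 ± 2.23 and 44.9 ± 2.56 CPM. For ANXA7 the log2 difference was -0.0053 ± 0.13 (SE; edgeR adjusted p = 0.997). As 3.67% of its exon length lies opposite another annotated gene and strand was ignored, reads over that stretch were left out. The ANXA7 counts may therefore be slightly too low.

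ANXA6 encodes annexin A6, which carries a doubled core and is known for roles at endosomes and in membrane repair (chromosome 5, 151100706 to 151157785, minus strand). It measured 98.5 ± 5.95 CPM in the control group and 94.5 ± 13.3 CPM in the CXCL10 group. The CXCL10 libraries enclosed all controls, with 110 CPM in replicate 1, the highest of all, and 87.6 and 85.9 CPM in replicates 3 and 4, the lowest. For ANXA6 the log2 difference was -0.06 ± 0.14 (SE; edgeR adjusted p = 0.941), and without CXCL10 replicate 1 it was -0.18. ANXA4 encodes annexin A4, which forms lattices on membranes (chromosome 2, 69644425 to 69827112, plus strand). It measured 84.5 ± 2.72 and 89.5 ± 5.63 CPM, and CXCL10 replicate 4 was the highest library with 95.8 CPM. For ANXA4 the log2 difference was 0.08 ± 0.12 (SE; edgeR adjusted p = 0.901), and without CXCL10 replicate 4 it was 0.03.

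ANXA3 encodes annexin A3, a protein best known from neutrophil granules (chromosome 4, 78551747 to 78610451, plus strand), and it was close to the limit of measurement. Control replicates 1, 3 and 4 had 32, 43 and 49 reads, and CXCL10 replicates 1, 3 and 4 had 66, 52 and 50 reads. In CPM these were 0.828, 1.14 and 1.46 for controls and 1.78, 1.21 and 1.40 for CXCL10. The highest library was CXCL10 replicate 1 and the lowest control replicate 1, while control replicate 4 lay above CXCL10 replicates 3 and 4. The log2 fold change was 0.36 ± 0.33 (SE), with a 95% interval from 0.782-fold to 2.10-fold and an adjusted p of 0.829 by edgeR, and the interval is the widest of the 8 annexins. Leaving out control replicate 1 gave 0.17, CXCL10 replicate 1 gave 0.19 and control replicate 4 gave 0.57.

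Members of the family deviated in different directions in some libraries and mostly together in CXCL10 replicate 3. Relative to its own mean over the 6 libraries, ANXA2 was 0.24 lower on the log2 scale in CXCL10 replicate 1, where ANXA3, ANXA6 and ANXA11 had their highest levels. CXCL10 replicate 3 held the lowest level of 3 annexins, ANXA1, ANXA5 and ANXA7. Every annexin except ANXA4, at 0.0078, lay below its own mean there, from -0.18 for ANXA5 to -0.046 for ANXA11. These levels are scaled by TMM, and CXCL10 replicate 3 had the largest TMM factor, at 1.05. The 7 annexins above 10 CPM spanned 0.13 to 0.45 on the log2 scale over the libraries, and the median span of the 8754 genes above that level was 0.49.

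**Figure D3:**
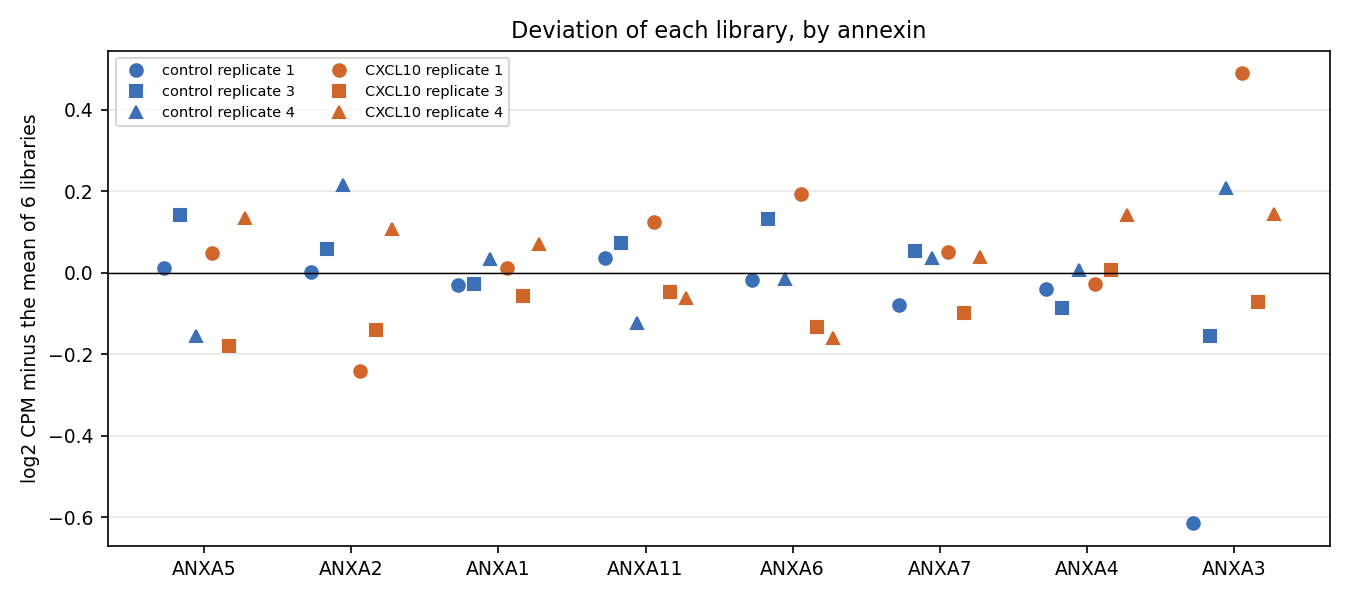
For each annexin the vertical axis gives log2 CPM in each library minus that gene's mean over the 6 libraries (control blue, CXCL10 orange, symbols for replicates). The groups overlap for every annexin, ANXA1 and ANXA7 have the narrowest spread, and ANXA3, with 32 to 66 reads per library, the widest.

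The genes whose levels over the 6 libraries were most like those of ANXA2 and ANXA5 were sought among all genes, few of which are annexins. Likeness was the root mean square difference of log2 CPM after each gene's mean was removed, over 6 libraries and all genes of at least 10 CPM. For ANXA2 the nearest were GHITM, SELENOT and OSER1, at 0.04, 0.05 and 0.05. For ANXA5 they were NDRG2, LAPTM4A and KATNBL1, at 0.02, 0.03 and 0.03. The nearest annexin was at 0.14 from ANXA2 and at 0.11 from ANXA5. With 8753 candidate genes and 6 libraries, such close profiles are a description of these libraries only.

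Other rows with annexin names were low. ANXA9 measured 2.31 ± 0.536 CPM in controls and 3.36 ± 0.814 CPM after CXCL10, which is a log2 difference of 0.54 ± 0.27 (SE; edgeR adjusted p = 0.702), which was 0.37 without control replicate 4. ANXA8 had 36 to 92 reads per library and its near-identical copy ANXA8L1 4 to 26, and reads shared by these copies were left out. ANXA10 and ANXA13 had at most 3 reads in a library, under the limit of 3 fragments, or 6 reads when both mates are counted. The pseudogene ANXA2P2 had 68 to 122 reads in a library, and its log2 difference was 0.23 ± 0.27 (SE; edgeR adjusted p = 0.867). Leaving out control replicate 3 gave 0.51, control replicate 1 gave 0.10, control replicate 4 gave 0.13 and CXCL10 replicate 4 gave 0.09. ANXA2P2 may hold reads of ANXA2, given the shared sequence described above, and this was not tested.

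Of 6 S100 and other calcium-binding partner genes, 5 lay below 0 on the log2 scale and none was called. Over all genes tested, 7597 of 16531 lay below 0. The partners' median was -0.34, beside 0.02 over all genes, and 3 of the 6 had an unadjusted p under 0.05 and were lower, as were 768 of all 16531 genes. S100A10, the partner of annexin A2, had 383, 363 and 491 CPM in control replicates 1, 3 and 4 and 367, 296 and 328 CPM in CXCL10 replicates 1, 3 and 4. CXCL10 replicate 1 lay between controls 1 and 3, so the groups overlapped. For S100A10 the log2 difference was -0.32 ± 0.15 (SE; edgeR adjusted p = 0.687), and -0.17 without control replicate 4. S100A11, known to bind annexin A1, measured 1068 ± 69.0 and 893.5 ± 129 CPM, a log2 fold change of -0.26 ± 0.14 (SE; edgeR adjusted p = 0.710), and -0.38 without CXCL10 replicate 1. S100A6 had -0.60 ± 0.23 (edgeR adjusted p = 0.683), with control replicate 4 far above the others at 48831 reads, and -0.15 without that library. With no filter on low counts S100A6 was called (-0.59, edgeR adjusted p = 0.0190). SRI, the gene of sorcin, a partner of annexin A7, was lower and did not overlap between groups, as held for 1071 of all 16531 genes. Its log2 fold change was -0.36 ± 0.16 (edgeR adjusted p = 0.684), and -0.15 without control replicate 4. PDCD6, the gene of ALG-2, which binds annexins A7 and A11, had 97 to 163 reads in a library, and its log2 difference was 0.18 ± 0.22 (edgeR adjusted p = 0.870). Leaving out control replicate 1 gave 0.36, control replicate 3 gave 0.11 and control replicate 4 gave 0.12. Of the PDCD6 exon length, 13.6% overlaps other genes on the same strand. The counting left out reads shared with them, so the PDCD6 counts may be too low.

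Removing the gene length trend of each library moved some partner genes and not others. The log2 fold change was then -0.13 for S100A10, -0.06 for S100A11, -0.38 for S100A6 and 0.09 for PDCD6, while SRI was at -0.38, close to its value without the correction. Control replicate 4 also had the highest share of ribosomal protein reads, and the part of RNA quality in these differences was not tested. Reads of S100A10 per read of ANXA2 were 0.368, 0.336 and 0.408 in control replicates 1, 3 and 4 and 0.418, 0.315 and 0.293 in CXCL10 replicates 1, 3 and 4. The highest ratio belonged to CXCL10 replicate 1 and the lowest to CXCL10 replicate 4, so the ratio overlapped between the groups.

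Of 6 receptor and lipid enzyme genes linked to annexin A1, none was called. Their median was 0.23 on the log2 scale and 5 were above 0, as were 54.0% of all genes tested. The formyl peptide receptor genes FPR1, FPR2 and FPR3, 3 of those 5, had few reads, with 6 to 82 in a library. FPR1 had 60 to 82 reads in a library, and its log2 difference was 0.09 ± 0.28 (SE; edgeR adjusted p = 0.956), and FPR2, the main receptor described for annexin A1, had 6 to 19 reads and 0.57 ± 0.54 (edgeR adjusted p = 0.830). For FPR2, leaving out control replicate 1 gave 1.03 and control replicate 4 gave 0.37. ALOX5, the gene of 5-lipoxygenase, measured 29.2 ± 9.05 and 41.8 ± 8.62 CPM, a log2 fold change of 0.52 ± 0.22 (edgeR adjusted p = 0.683). It was lowest in control replicate 4, with 634 reads, and its log2 fold change was 0.29 without that library. ALOX5AP, its membrane partner FLAP, was highest there with 43650 reads, and its log2 fold change of -0.38 ± 0.22 (edgeR adjusted p = 0.719) was -0.04 without it. Among 6 tested genes of cell-surface plasminogen activation, 5 were below 0, with a median of -0.11. Over all genes tested, 7597 of 16531 were below 0. PLGRKT, a plasminogen receptor gene, was lower in every CXCL10 library than in every control, with 57.2 ± 6.30 and 42.3 ± 4.56 CPM and a log2 fold change of -0.43 ± 0.14 (edgeR adjusted p = 0.683). Of all 16531 genes tested, 1071 were lower with no overlap between the groups. The PLGRKT value was -0.34 without control replicate 4 and -0.27 with the length trend removed. SERPINB2, the gene of an inhibitor of plasminogen activators, had -0.34 ± 0.27 (edgeR adjusted p = 0.802). Leaving out control replicate 1 gave -0.12, CXCL10 replicate 3 gave -0.18 and control replicate 4 gave -0.52.

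Plasma membrane repair genes centred on 0.05 (median, log2 scale), with 8 of 12 above 0 and 0 called. Over all genes tested, 54.0% were above 0 and the median was 0.02. AHNAK, the gene of a very large scaffold protein that binds the annexin A2 and S100A10 complex, measured 126 ± 3.26 and 170.2 ± 54.03 CPM, a log2 fold change of 0.44 ± 0.19 (SE; edgeR adjusted p = 0.683). Its high mean came with CXCL10 replicate 3, at 9793 reads against 4086 to 5844 in the other libraries, and without that library the value was 0.18. CAPN1, a calpain gene, had 0.25 ± 0.15 (edgeR adjusted p = 0.746), 0.12 with control replicate 4 left out and 0.05 with the length trend removed as well. Of 7 tested genes that scramble or flip phosphatidylserine, the lipid that annexins bind, 6 were above 0 with a median of 0.12. ATP8A1, a flippase gene, had 0.30 ± 0.25 (edgeR adjusted p = 0.808). Leaving out CXCL10 replicate 3, its highest library with 465 reads, gave -0.03, and leaving out control replicate 4 gave 0.50. XKR8, a scramblase gene, had -0.19 ± 0.16 (edgeR adjusted p = 0.807), with -0.09 when CXCL10 replicate 3 was left out and -0.31 when CXCL10 replicate 1 was. The 6 tested glucocorticoid-responsive genes, a class to which ANXA1 belongs, had a median of 0.13. CD163, a scavenger receptor gene, had 0.29 ± 0.14 (edgeR adjusted p = 0.694) without overlap between the groups. Of all 16531 genes tested, 953 were higher with no such overlap. NR3C1, the glucocorticoid receptor gene, had 0.22 ± 0.17 (edgeR adjusted p = 0.790). Leaving out CXCL10 replicate 3 gave -0.02 for NR3C1.

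No setting tried called an annexin, but most settings called no gene at all. Under 18 other settings, each with a library left out or another scaling, filter, test or correction, 0 of 8 annexins were called in every case. In 16 of the 18, 0 of all genes tested were called, so the annexin count there could only be 0. With no filter on low counts, 45 genes were higher and 92 lower of 30869. In limma-voom with quality weights, 11 were higher and 31 lower of 16531. ANXA2 stayed below 0 and ANXA3 above 0 in all 18, while the other 6 changed sign in 1 to 7 of them.

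**Figure D4:**
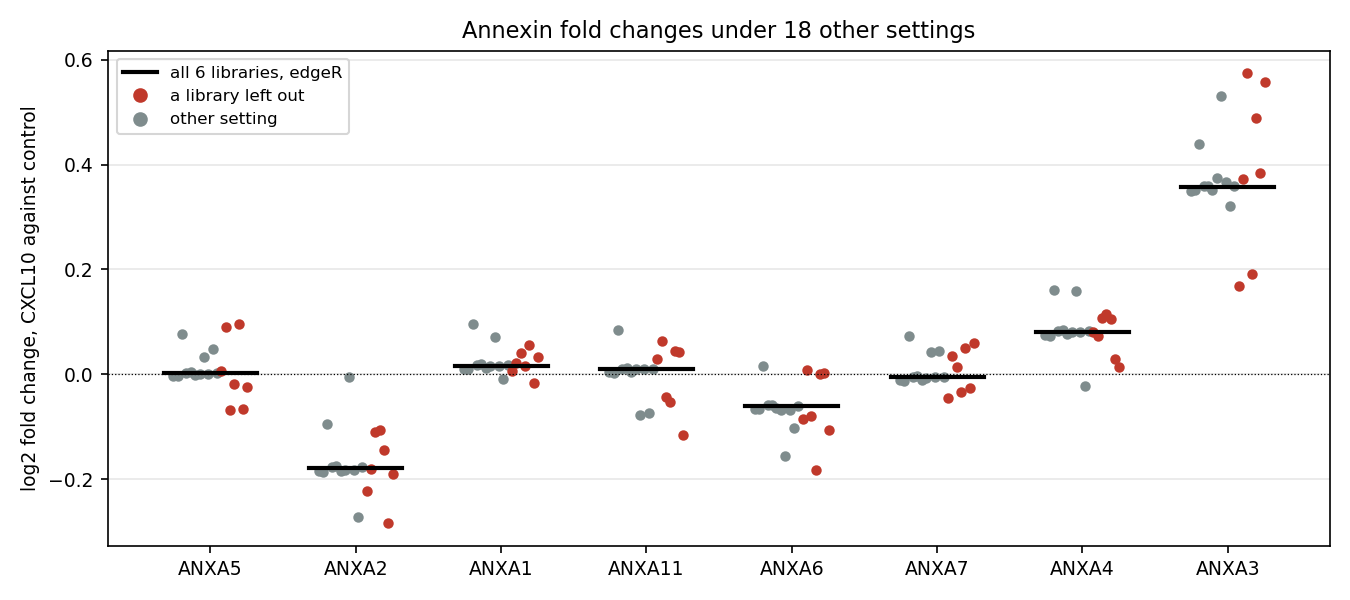
The vertical axis gives the log2 fold change of CXCL10 against control for each annexin, with the value from all 6 libraries as a black bar, the values with a library left out in red and those of other settings in grey. ANXA2 stays below 0 and ANXA3 above it, with values from 0.17 to 0.57. The other annexins have values on both sides of 0, mostly above it for ANXA1 and ANXA4 and mostly below it for ANXA6.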

How the data were processed

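Per the labels, a stranded mRNA kit was used for the 6 libraries, 3 of each group. The deposited files hold raw read counts per gene name, which the authors obtained, per the file headers, from featureCounts 2.0.6 and GENCODE 30 exons. Trim Galore, STAR and Subread with hg38 are named in the submitters' processing notes. Per the file headers, both mates were counted, strand was ignored, and reads over 2 genes or at several places were left out, so counting error exceeds that of independent reads.

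Counts were tested here with edgeR 4.0.16 in R 4.3.3: filterByExpr, TMM, a quasi-likelihood fit with group as the only term, and Benjamini-Hochberg adjustment over 16531 genes at 0.05. Standard errors come from the fold change and its F statistic. DESeq2 1.42.0 and limma 3.58.1 (voom) were alternatives, with other scalings and filters, a replicate block, counts divided by 2, removal of a length trend (lowess on log2 length), and each library left out. No pair of libraries had identical counts or agreed within sampling noise.

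Annexins are the 8 members given. Members and gene lists were chosen with earlier results of these data known. Named genes are all members, the partners S100A10, S100A11, PDCD6, FPR1 and FPR2, up to 2 genes per list with the lowest p at 1 CPM or more, and the 3 nearest profiles of ANXA2 (lowest p) and ANXA5 (highest per kb). Of 7 glucocorticoid-responsive genes listed, 6 were used. Some other listed genes are not reported here, and the naming rule was applied to the rest. Shared sequence was counted in GENCODE 29 transcripts.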

Additional observations from a re-analysis of the deposited data

How the results depend on the processing

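No annexin was called under any of the 18 alternatives, 16 of which called 0 genes of any kind. Annexin fold changes near 0 changed sign with the setting. By setting, the log2 fold change of ANXA5 was -0.0025 with DESeq2's size factors, -0.0024 with upper-quartile factors and -0.0016 in DESeq2. Scaled by library size alone, ANXA6 was at 0.016, ANXA7 at 0.073 and the median of the 8 annexins at 0.080, beside 0.10 for all genes. In limma-voom with quality weights ANXA7 was at 0.042, ANXA11 at -0.078 and ALOX5AP at 0.0082. With the length trend removed ANXA1 was at -0.0087, ANXA4 at -0.022, ANXA7 at 0.044 and ANXA11 at -0.074. With control replicate 4 left out as well, chosen after the data were seen, ANXA5 was at -0.024, ANXA7 at 0.060, ANXA11 at -0.11 and ALOX5AP at 0.061. With 1 library left out in turn, values ran from -0.016 to 0.057 for ANXA1, 0.029 to 0.12 for ANXA4, -0.067 to 0.095 for ANXA5, -0.18 to 0.0076 for ANXA6, -0.046 to 0.049 for ANXA7, -0.053 to 0.065 for ANXA11, -0.048 to 0.28 for FPR1, -0.026 to 0.50 for ATP8A1 and -0.017 to 0.37 for NR3C1. The causes of these changes were not tested.

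Over all genes, edgeR called 45 higher and 92 lower with no filter on low counts, and limma-voom with quality weights called 11 higher and 31 lower, beside 0 as reported, and no annexin was among them. In DESeq2, 0 genes were called. With principal transcript lengths, 5 of the 7 neighbouring pairs kept their order in all 6 libraries. Coding lengths from a protein table were planned as an alternative and not run, because no protein table was used here. With the replicate block, 0 annexins were called and ANXA2 was at -0.18. Same-numbered libraries did not deviate together (correlations across genes of 0.026, 0.019 and -0.051), so the numbers were not taken as pairs, and not every library correlated best with its own number. FPR2 gave no value in 2 alternatives. ANXA3, at 32 to 66 reads, is the annexin that depth limits most.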
